A study of Mus musculus with 6 samples.

Results

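The E2F transcription factor family was followed in the livers of male BALB/c mice, in control animals and in animals kept alone. All probe sets of the array annotated to exactly 1 of the 10 genes E2f1 to E2f8, Tfdp1 and Tfdp2 were taken, which gave 21 of 45037 probe sets. The family was picked with the fall of E2f8 in these same arrays known. Its members were thus chosen by their gene names after the isolated against control values of E2f8 had been seen. For the members that comparison is given here as a description. No p-value is printed for any member, and from the calls of members at a fixed threshold nothing is read. Both groups were 10 weeks old by their labels and had entered the study at 4 weeks of age, caged 5 together, with 10 days to settle. The 3 samples labelled as control were compared with 3 samples from mice exposed to isolation stress for 30 days, each housed without cage mates in a foam box and with less bedding. No genotype or drug separated the groups. Whether each array held the RNA of a different mouse is not stated, so part of the spread between arrays may be technical. Liver RNA was hybridised to Affymetrix arrays, and the MAS5 signal is a linear brightness per probe set.

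E2F proteins bind the promoters of genes needed for DNA synthesis and division. The activators E2F1 to E2F3 drive these genes when the retinoblastoma (RB) family proteins release them. E2F4 and E2F5 repress them together with the RB relatives p107 and p130 in resting cells, and E2F6 represses without RB proteins. E2F1 to E2F6 bind DNA as dimers with a DP protein, encoded by Tfdp1 or Tfdp2. The atypical E2F7 and E2F8 carry a pair of DNA-binding domains each, need no DP partner and repress E2F targets, E2f1 included. In mouse liver, E2F7 and E2F8 are known for promoting the polyploidy that hepatocytes acquire as the animal matures, and E2F1 for opposing it.

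In isolated mice the E2f8 transcript read lower on both of its probe sets, by 8.69-fold on the brighter. E2f2, an activator, had a higher mean on both of its probe sets, but from signals close to the bottom of the scale. A probe set annotated to E2f5, but with no accession in the annotation, read 4.09-fold higher, and the other E2f5 probe sets differed by 1.17-fold or less. All 4 probe sets of Tfdp2 had changes below 0, and the remaining members had small differences or differences of opposite sign on different probe sets. The array holds 3 probe sets for E2f1, 2 for E2f2, 2 for E2f3, 1 for E2f4, 3 for E2f5, 2 for E2f6, 1 for E2f7, 2 for E2f8, 1 for Tfdp1 and 4 for Tfdp2.

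Of the 21 probe sets, 14 passed the filter on dim probe sets, which kept the brighter 50% of probe sets (mean log2 value of the 6 arrays) and had its floor at a signal of about 18. The other 7 were 2 of E2f1, both of E2f2 and 1 each of E2f6, E2f7 and E2f8. A passing mean does not show that a transcript was detected, since no detection calls are at hand. Of the 14, limma called 1 higher (E2f5 1447625_at) and 1 lower (E2f8 1436186_at) at an adjusted p under 0.05, where 1.63% of all 22519 tested probe sets were called, 0.773% higher and 0.857% lower. Without an intensity trend in the variances 1 was called, the E2f8 probe set. As this contrast chose the family, nothing is read from these counts. The median log2 change of the 14 was -0.078, beside 0.035 over all tested probe sets. Log2 changes are isolated minus control on the log2(signal + 2) scale, which understates the change of dim probe sets.

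**Figure D1:**
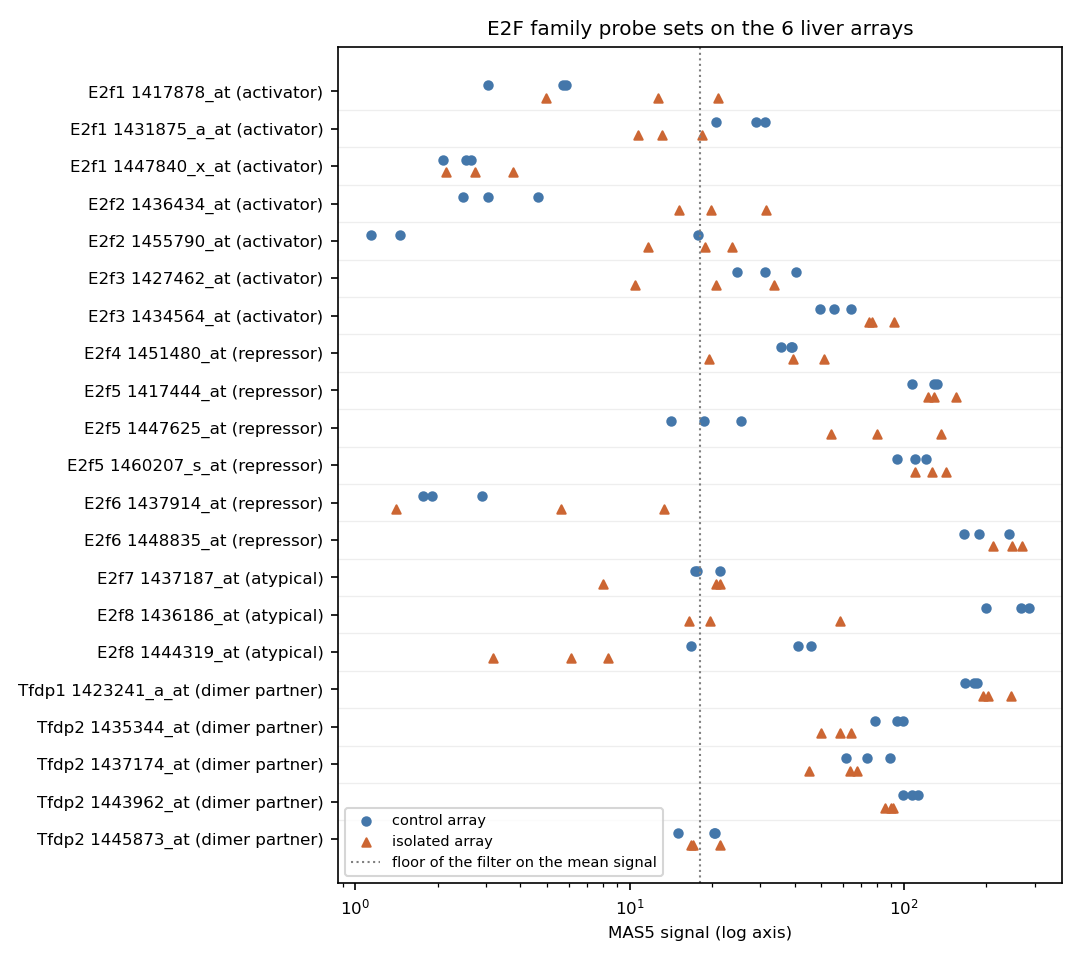
MAS5 signal (x axis, log scale) of the 21 E2F family probe sets, with each control array as a circle and each isolated array as a triangle; the dotted line marks the filter's floor at a mean signal of about 18. The E2f8 row 1436186_at has control arrays at 200 to 286 and isolated arrays at 16.4 to 58.4, and the groups overlap in 12 of the 21 rows.

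The atypical member E2f8 had the lowest log2 change of the family. On probe set 1436186_at its signal was 200, 268 and 286 in control replicates 1, 2 and 3, against 58.4, 16.4 and 19.6 in isolated replicates 1, 2 and 3. Every isolated array lay below every control, and isolated replicate 1 stood above the other isolated arrays. The group means were 251 ± 45.1 and 31.5 ± 23.4 (SD, n = 3 per group), a log2 change of -3.12 ± 0.32 (SE of the limma fit). Isolated replicates 2 and 3 read near the floor of 18, so the fold is approximate. The second probe set, 1444319_at, read 16.7, 45.7 and 41.2 in control livers and 8.37, 3.18 and 6.09 in isolated ones, again without overlap, with a log2 change of -2.16. It lies below the filter, and with a pseudocount of 16 in place of 2 its fold went from 4.46 to 2.24. After each group's mean was removed, the log2 values of the E2f8 probe sets still correlated at 0.681 over the 6 arrays, which share their RNA. These are whole-liver samples, in which fewer cells of a type and less RNA per cell cannot be told apart.

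The isolated arrays with the lowest E2f8 signals, replicates 2 and 3, also had the highest summed signal of the 7 adipocyte markers on the array, though the single markers went both ways. The sum ran from 259 to 383 in controls and was 308, 510 and 566 in isolated replicates 1, 2 and 3, with no marker listed at 0. Its largest part on every array was Fabp4. That gene read 117, 202 and 157 in control replicates 1, 2 and 3 and 203, 300 and 404 in the isolated ones, without overlap. Adipoq, the fat hormone adiponectin, had signals of 3.78, 59.5 and 54.8 in isolated replicates 1, 2 and 3, where the controls had 4.38, 8.48 and 15.6, so its groups overlapped. The called marker was Plin4, a lipid droplet coat gene, and it fell: it read 56, 87.6 and 89.7 in control livers and 23.3, 38.5 and 21.8 in isolated ones, a log2 change of -1.43 (limma adjusted p 0.00695). Of the 7 markers, 3 had changes above 0, namely Adipoq, the fat hormone gene Retn (1.73) and the fatty acid carrier gene Fabp4 (0.90, adjusted p 0.0578). The other 4 were below 0, with Lipe at -0.16, Lep at -0.06 and Cidea at -0.31 beside Plin4. Adipoq, Retn, Lep and Cidea lay below the filter, and these markers are named after their values were seen. On isolated replicate 1 alone E2f8 was 4.15-fold below the controls on 1436186_at and 3.26-fold on 1444319_at, and the part of fat cells in the E2f8 values was not tested.

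E2f7, the other atypical member, did not separate the groups. Its probe set 1437187_at, just below the filter, read 17.6, 21.4 and 17.3 on the control arrays and 8, 20.6 and 21.4 on the isolated arrays. Isolated replicate 1 was low and the other isolated arrays sat within the control range. The log2 change was -0.25, against a within-group SD of 0.503, and without isolated replicate 1 its sign turned.

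The 250 bases before the RefSeq start of E2f8 and of E2f7 are shown because these genes encode the same class of repressor and are known targets of E2F proteins, while only E2f8 had separate groups here; the difference between their changes was not tested. The E2f8 stretch is chr7:48881597-48881846, minus strand, and that of E2f7 is chr10:110745189-110745438, plus strand, both in build GRCm38.p6. Capitals mark matches, on either strand, to an E2F motif or to the cell cycle homology region (CHR), which is spelled TTTGAA. The E2F motif was searched as TTCCCGC, as the variant TTCGCGC, as the variant TTGCCGC and as the variant TTGGCGC. The CHR is an element bound by the MuvB core that RB relatives and E2F4 join.
E2f8: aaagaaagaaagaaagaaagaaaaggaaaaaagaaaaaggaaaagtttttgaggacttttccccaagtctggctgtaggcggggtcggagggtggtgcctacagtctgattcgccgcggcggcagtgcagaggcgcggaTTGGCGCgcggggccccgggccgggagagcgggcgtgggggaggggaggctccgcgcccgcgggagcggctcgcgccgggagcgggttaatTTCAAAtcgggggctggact
E2f7: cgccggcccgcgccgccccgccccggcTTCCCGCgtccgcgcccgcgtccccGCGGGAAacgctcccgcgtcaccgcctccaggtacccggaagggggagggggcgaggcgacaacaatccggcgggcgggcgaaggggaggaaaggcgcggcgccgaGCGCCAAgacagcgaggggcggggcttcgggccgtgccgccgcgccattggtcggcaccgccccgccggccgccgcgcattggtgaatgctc
The E2f8 stretch held 1 E2F match on the gene's strand, beginning 111 bases before the start, and 1 CHR match on the opposite strand, beginning 20 bases before it. The E2f7 stretch held 3 E2F matches, beginning 223, 198 and 92 bases before the start, and no CHR match. Over all 32851 promoters of the RefSeq table, 7.89% held an E2F match in the same window, 16% a CHR match and 0.724% both. A match describes these letters only.

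RefSeq promoters were at hand for 8 of the 10 genes, with 12 starts in all. E2F matches were found for 4 genes, E2f3, E2f7, E2f8 and Tfdp1, and CHR matches for 3, E2f2, E2f3 and E2f8. Only the 250 bases before each listed start were searched, so genes without a match, E2f1 among them, may hold matches elsewhere. The CHR match of E2f2 lies before the downstream of its listed starts, and the stretch before the other held none. Whether each listed start is the main one of its gene, or lies inside it, was not tested. The matches in E2f3 and Tfdp1 are given with 12 bases on each side, or to the start, to set beside E2f8. The E2f3 windows are chr13:29986069-29986098 and chr13:29986064-29986086, minus strand, and that of Tfdp1 is chr8:13338696-13338726, plus strand.
E2f3, CHR: atgcaaatatggTTTGAAaagccggcggga
E2f3, E2F: tttgaaaagccgGCGGGAAatct
Tfdp1, E2F: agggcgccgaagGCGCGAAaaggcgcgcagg
E2f3 and E2f8 were thus the 2 genes with both motifs before 1 start, and no E2F match overlapped a CHR match in them.

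Among the activators, E2f2 had the highest change. Probe set 1436434_at read 3.05, 2.46 and 4.64 in control livers and 15.2, 31.4 and 19.8 in isolated ones, with every isolated array above every control. The means were 3.38 ± 1.13 and 22.1 ± 8.4 (SD, n = 3 per group), with a log2 change of 2.13. The fold of 4.37 rests on very dim control signals and was 1.94 with a pseudocount of 16. The second probe set, 1455790_at, read 1.14, 1.45 and 17.7 on the control arrays and 18.9, 11.7 and 23.6 on the isolated arrays. Control replicate 3 lay within the isolated range there, so the groups overlapped, and the log2 change was 1.7. Neither probe set passed the filter.

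E2f2 is known for its part in blood cell proliferation, so markers of blood cells are given beside it. The summed signal of 9 lymphoid markers ran from 169 to 220 in controls and from 198 to 254 in isolated mice, and 7 of the 9 lay below the filter. Of the 9, 5 had changes above 0, from 0.16 for Ptprc, which had most of the sum, to 1.06 for the T cell gene Cd3g, and 4 had changes below 0, Cd3e among them at -0.21, with overlapping groups for all 9. The summed signal of 5 erythroid markers ran from 824 to 1075 in controls and from 635 to 1026 in isolated mice, and all 5 had changes below 0. Alas2 had most of that sum (768 to 1005 in controls, 584 to 993 in isolated mice), and 3 of the 5 lay below the filter. Among the dim ones, Slc4a1 had every isolated array below every control, and the other 4 markers had overlapping groups. The ranges of the sums overlapped in both lists, and the part of these cells in the E2f2 values was not tested.

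E2f1, the activator that atypical E2Fs repress, gave no common direction. Probe set 1431875_a_at read 28.8, 31.2 and 20.6 in control livers and 13.1, 18.3 and 10.7 in isolated ones, so that every isolated array was below every control, with a log2 change of -0.85 ± 0.40 (SE). Probe set 1417878_at, below the filter, read 5.88, 5.74 and 3.04 on the control arrays and 21, 4.95 and 12.7 on the isolated arrays, with a log2 change of 0.98 and overlapping groups. The third, 1447840_x_at, stayed between 2.08 and 3.77 on all arrays. The probe sets of E2f1 thus differ in sign, and the isolated signals of all 3 lie near or under the floor.

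E2f3 also differed between its probe sets. The brighter, 1434564_at, read 49.4, 55.8 and 64.2 in control livers and 74.7, 76.2 and 92.2 in isolated ones, all above the controls, with a log2 change of 0.51 ± 0.21 (SE). Probe set 1427462_at read 40.3, 24.6 and 31.2 on the control arrays and 10.5, 20.6 and 33.6 on the isolated arrays. Its groups overlapped and its log2 change was -0.63 ± 0.39 (SE).

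**Figure D2:**
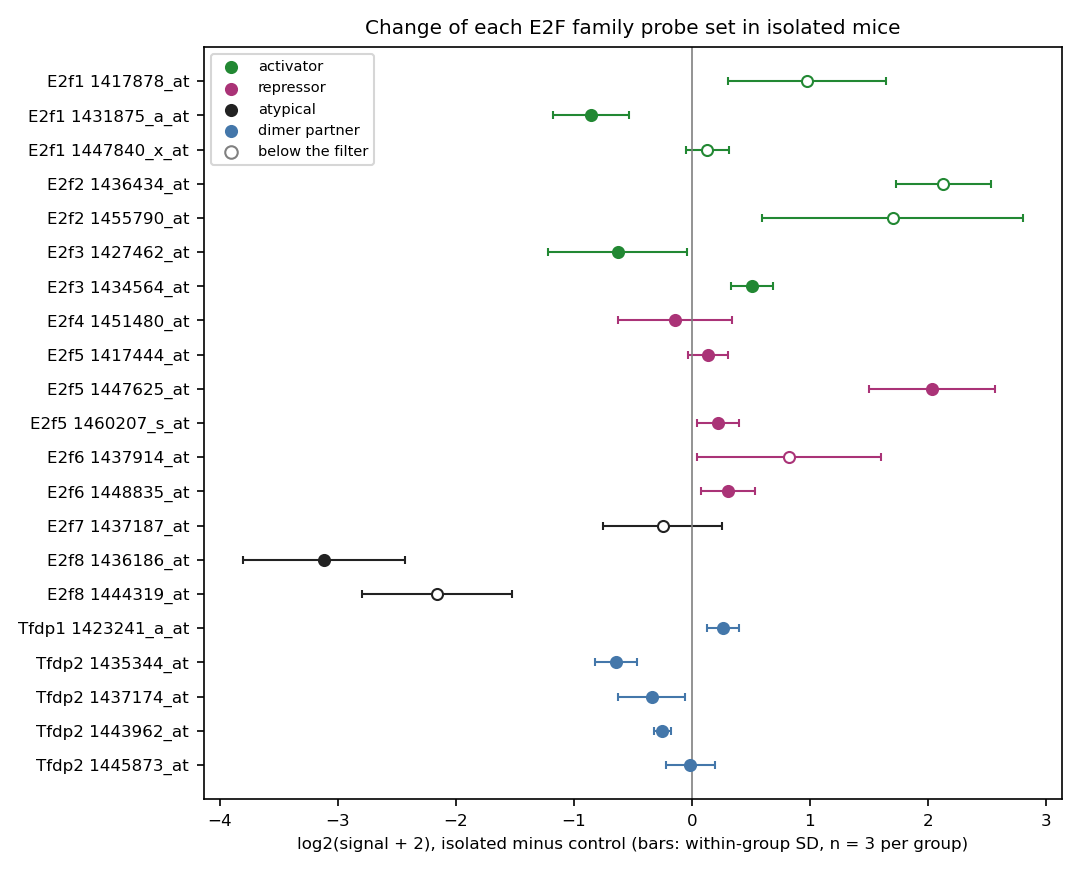
Log2 change (x axis, isolated minus control on the log2(signal + 2) scale) of each E2F family probe set, coloured by role, with bars for the within-group SD (n = 3 per group) and open circles for the 7 probe sets below the filter. E2f8 lies at -3.12 and -2.16, E2f2 at 2.13 and 1.7, and E2f5 1447625_at at 2.03, while the other probe sets lie between -0.85 and 0.98.

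Among the repressors that work with a DP partner, 1 probe set annotated to E2f5 stood apart from the rest. Probe set 1447625_at read 14.2, 25.4 and 18.7 in control livers and 136, 54 and 79.9 in isolated ones, with no overlap. The means were 19.4 ± 5.66 and 89.9 ± 41.7 (SD, n = 3 per group), a log2 change of 2.03 ± 0.31 (SE). The annotation gives no accession for this probe set, so whether it measures the E2f5 transcript could not be settled here. On isolated replicate 1 alone the fold was 6.57.

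The other E2f5 probe sets, both annotated to 1 cDNA accession, did not show this. Probe set 1417444_at read 129, 107 and 132 on the control arrays and 129, 155 and 122 on the isolated arrays, and 1460207_s_at read 94.1, 110 and 120 against 127, 110 and 142. Their groups overlapped, with log2 changes of 0.14 ± 0.19 and 0.22 ± 0.19 (SE). The suffix s marks probes shared by several transcripts. The 3 probe sets of E2f5 therefore disagree in size, and the higher reading of 1447625_at was not matched by those with an accession.

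E2f4, which with p107 and p130 is the main E2F of resting cells, read 35.6, 38.9 and 39.2 in control livers and 39.4, 19.4 and 51.2 in isolated ones. The isolated arrays spread on both sides of the controls, with a log2 change of -0.14 ± 0.32 (SE) that turned sign without isolated replicate 2. E2f6 read 188, 165 and 241 on the control arrays and 212, 247 and 270 on the isolated arrays on 1448835_at, with overlapping groups and a log2 change of 0.30 ± 0.19 (SE). Its second probe set, 1437914_at, below the filter, read 1.77 to 2.9 in controls and 1.41 to 13.3 in isolated mice.

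The dimer partner genes had small differences, of opposite sign between Tfdp1 and Tfdp2. Tfdp1, which encodes DP1, read 167, 185 and 180 in control livers and 203, 194 and 245 in isolated ones. All isolated arrays were above the controls, by a log2 change of only 0.26 ± 0.18 (SE). Tfdp2, which encodes DP2, read 78.7, 99.6 and 94.4 on the control arrays and 58.3, 64.2 and 49.9 on the isolated arrays on 1435344_at. All isolated arrays were below the controls, with a log2 change of -0.64 ± 0.21 (SE).

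The other Tfdp2 probe sets showed smaller changes. Probe set 1443962_at read 113, 99.1 and 107 in controls against 85.6, 91.3 and 89.9, without overlap and with a log2 change of -0.25. Probe set 1437174_at overlapped between groups with a log2 change of -0.34, and 1445873_at, between 15 and 21.3 on all arrays, had -0.01. The last value turned sign with median centring or quantile normalization, as no other member did.

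Counted by role over all 21 probe sets, isolated arrays lay above every control on 2 of 7 activator, 1 of 6 repressor, 0 of 3 atypical and 1 of 5 partner probe sets, and below every control on 1, 0, 2 and 2. Over all 45037 probe sets, 6.94% lay above and 5.92% below. Among those that passed the filter, the median log2 change was -0.63 over 3 activator, 0.22 over 5 repressor and -0.25 over 5 partner probe sets, and the 1 atypical probe set was that of E2f8. The activator median hides probe sets of both signs, and differences between roles were not tested.

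The genes that E2F proteins regulate, and those that regulate E2F, were compared as 5 lists, with 1 probe set per gene, the tested one with the highest mean. Of these, 1 gene was called, the mitotic gene Cks2, where 1.75% of all 10986 tested genes were called, 0.901% of all tested as higher. The median log2 change over all tested genes was 0.052. Isolated arrays lay above every control for 10.8% of all tested genes and below for 5.17%. An unadjusted p under 0.05 was reached by 12.3% of all tested genes, and the counts at that level below are read against this share.

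RB family and E2F complex genes had 20 tested members, of which limma called 0, with 4 at an unadjusted p under 0.05 and a median log2 change of 0.13. The pocket protein genes Rb1 and Rbl2 (p130) had log2 changes of 0.16 and 0.10 with overlapping groups. Rbl1, which encodes p107, read 17.4, 19.2 and 18.3 in control livers and 22.7, 45 and 32.3 in isolated ones, all above the controls, by 0.75 on the log2 scale (limma adjusted p 0.414). Hcfc1, a cofactor of activator E2Fs, had 0.51 (adjusted p 0.275). Lin52, of the MuvB core, read 7.25, 35.5 and 39.8 on the control arrays and 45.4, 43.2 and 34.5 on the isolated arrays, with overlapping groups. Its log2 change of 0.81 (limma adjusted p 0.513) rests on control replicate 1 and was 0.11 without that array. Rb1 and Rbl2 are named as the RB relatives of Rbl1, after their values were seen.

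G1 to S phase regulators had 17 tested members, 14 with changes above 0, and a median log2 change of 0.36. Limma called 0, with 4 at an unadjusted p under 0.05. Isolated arrays lay above every control for 5 of the 17 and below for 0. Another 5 genes on the array lay below the filter and were not tested. Of these, Ccnf read 9.69, 1.81 and 12.5 on the control arrays and 28, 47.6 and 53.9 on the isolated arrays. Its log2 change was 2.34, the others had overlapping groups, and it is named after its values were seen. Skp2, which marks the cell cycle inhibitor p27 for degradation, read 30.6, 36.7 and 39 on the control arrays and 60.3, 66 and 67.6 on the isolated arrays, or 0.84 ± 0.23 (SE) on the log2 scale (limma adjusted p 0.0848). With median centring it was called. Ccnd1, the cyclin D1 gene, had 0.59 (adjusted p 0.234) and Fbxw7, which marks cyclin E for degradation, 0.55 (adjusted p 0.339).

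DNA replication and repair target genes of E2F had 40 tested members, 30 with changes above 0, and a median log2 change of 0.25. Limma called 0, with 10 at an unadjusted p under 0.05, and isolated arrays lay above every control for 7 and below for 1. Another 10 genes on the array lay below the filter and were not tested. Among these, isolated arrays lay above every control for Mcm6, Tyms, Uhrf1, Asf1b and Chek1 and below for Gins2, at dim signals. Uhrf1 stayed between 0.876 and 4.39 and Gins2 between 5.12 and 8.16 on all arrays. Over all 45037 probe sets, dim ones included, 6.94% lay above and 5.92% below. The share among dim genes alone was not computed, so nothing is read from this list. These dim genes are named after their values were seen. Gmnn, the geminin gene whose product restrains the licensing of replication origins, read 138, 99.2 and 138 in control livers and 207, 200 and 218 in isolated ones, or 0.74 ± 0.19 (SE) on the log2 scale (limma adjusted p 0.0509). The helicase subunit gene Mcm2 had 1.12 (adjusted p 0.186) with overlapping groups, and Mcm5 of the same complex 0.84 (adjusted p 0.356) with separate groups. The call on Gmnn was made with a pseudocount of 16 (0.0416), median centring (0.038), a robust trend (0.0291) and the replicate block (0.0293).

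Mitosis and cytokinesis genes were mostly dim: of 39 on the array, 25 lay below the filter. Among these, isolated arrays lay below every control for Ccnb2 (log2 change -1.12), Ect2 (-2.05) and Mki67 (-0.41) and above for Anln (1.24). The other dim mitosis genes had overlapping groups. Over all 45037 probe sets, 6.94% lay above and 5.92% below, and these dim genes are named after their values were seen. Of the 14 tested, 1 rose, 0 fell and 13 were not called, with a median log2 change of -0.031. Cks2, a small subunit of cyclin-dependent kinases, read 327, 272 and 283 on the control arrays and 534, 439 and 464 on the isolated arrays. It rose 1.62-fold (limma adjusted p 0.0317), the means being 294 ± 29.3 and 479 ± 49.6 (SD, n = 3 per group), and its other tested probe set was also called. The call on Cks2 was lost with quantile normalization (0.05, just above the threshold), without the intensity trend (0.205), without control replicate 2 (0.152) or 3 (0.0952), without isolated replicate 1 (0.144) or 3 (0.0529), and without isolated replicates 2 and 3 together (0.0571). Cdca8, of the chromosomal passenger complex, had 0.76 (adjusted p 0.388) and Cdc20, an activator of the anaphase-promoting complex, -0.50 (adjusted p 0.694).

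Apoptosis target genes of E2F had 7 tested members, of which limma called 0, with 2 at an unadjusted p under 0.05 and a median log2 change of 0.0056. Apaf1, the apoptosome scaffold gene, read 12.4, 21.4 and 25 in control livers and 37.3, 37.7 and 33.4 in isolated ones, or 0.87 on the log2 scale (limma adjusted p 0.28). Casp8, an initiator caspase gene, had -0.39 (adjusted p 0.349) and Hrk, which encodes a death-promoting BCL2 relative, -0.39 (adjusted p 0.844), a value of 0 without isolated replicate 1.

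**Figure D3:**
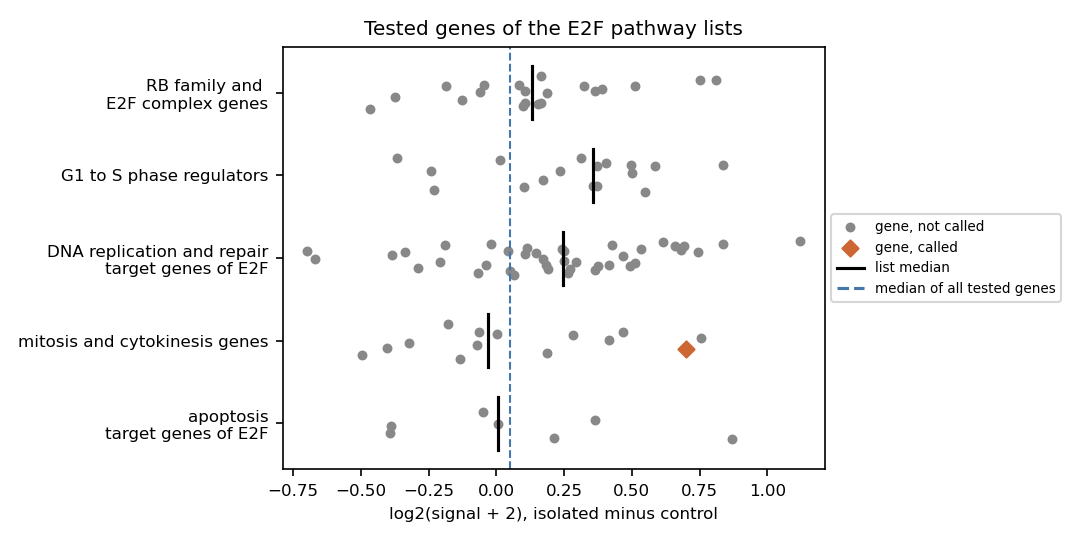
Log2 change (x axis, isolated minus control on the log2(signal + 2) scale) of each tested gene in the 5 E2F pathway lists, with the list median as a black bar, the median of all tested genes (0.052) as a dashed line and the called gene as a diamond. The diamond is Cks2 at 0.70, and the medians run from -0.031 for mitosis to 0.36 for G1 to S phase regulators.

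The 5 genes whose pattern over the 6 arrays was most like that of E2f8 1436186_at were taken by Pearson correlation of log2 values among 10985 genes, as a description. They were Cep170 (r = 0.998), which encodes a centrosomal protein, Acot3 (0.993), a peroxisomal acyl-CoA thioesterase gene, Dhcr7 (0.992), the last enzyme of cholesterol synthesis, Adh7 (0.991), an alcohol dehydrogenase gene, and 4933433N18Rik (0.989). Cep170 read 40.9, 43.8 and 44.3 on the control arrays and 28.8, 22.4 and 23.5 on the isolated arrays, a log2 change of -0.75. Acot3 had -1.32, 4933433N18Rik -0.64, Adh7 -0.42 and Dhcr7 -0.27. As these 5 genes were selected by correlation with E2f8, they share its lower isolated group and the position of isolated replicate 1 above the other isolated arrays. Their changes were smaller than that of E2f8. The other E2f8 probe set correlated at 0.948, and 120 genes were above 0.9.

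**Figure D4:**
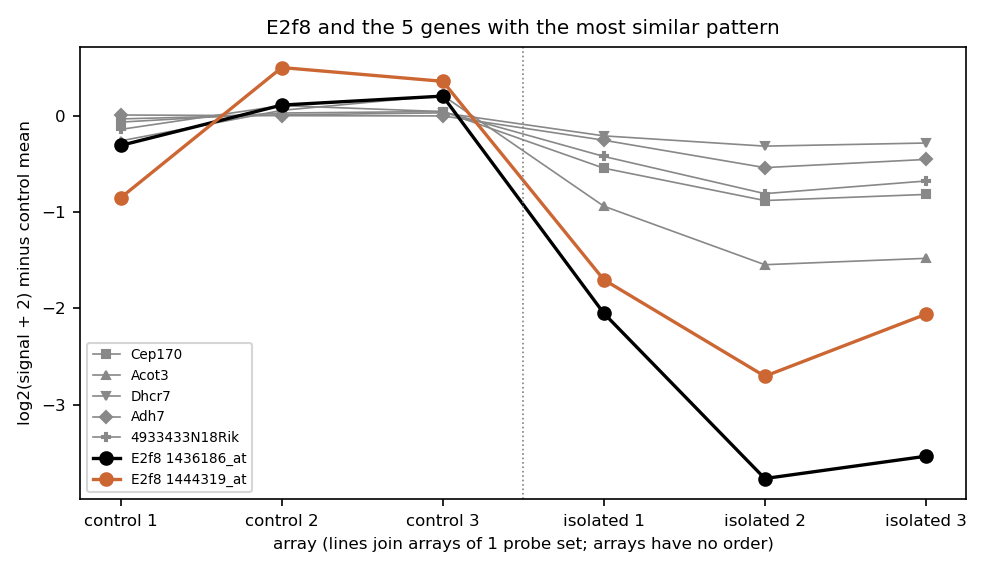
Log2(signal + 2) minus the control mean (y axis) on each of the 6 arrays (x axis) for both E2f8 probe sets and the 5 genes most like 1436186_at; lines join the values of 1 probe set. The E2f8 lines drop furthest, with isolated replicate 1 above isolated replicates 2 and 3 in every line.

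The groups overlapped in the array measures given here, while single arrays differed in brightness. Trimmed mean signals were 92.4, 94 and 108 in control replicates 1, 2 and 3 and 99.4, 92 and 110 in isolated replicates 1, 2 and 3. Median signals ran from 18.4 to 22.1 in controls and from 18.4 to 21.9 in isolated mice, and arrays of 1 group correlated at 0.969 to 0.974 over tested probe sets, a description across features. The ratio of 3′ to 5′ Gapdh control signals ran from 0.692 to 0.719 and from 0.689 to 0.695, and that of actin from 2.14 to 2.32 and from 1.99 to 2.35. The liver label was borne out by 7 hepatocyte markers, with albumin at 9947 to 10948 on every array. Summed markers overlapped between groups for hepatocytes (68767 to 72740 in controls, 65139 to 70389 in isolated mice), Kupffer cells (1257 to 1575 and 1000 to 1568), endothelial cells (1527 to 1879 and 1375 to 1713), stellate cells (2500 to 3420 and 2773 to 3205) and cholangiocytes (42.4 to 82.2 and 79.7 to 96.4). All 6 endothelial markers had changes below 0, from -0.3 to -0.02 on the log2 scale, with overlapping groups for each. Of the 6 stellate markers, 5 had changes above 0 and 1 below. Higher probe sets were 47.4% of all calls, 58.5% with median centring and 37.9% with quantile normalization. With 1 array left out that share ran from 28.3% (without isolated replicate 3) to 64.2% (without control replicate 3).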

How the data were processed

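The deposited table holds 1 intensity per probe set and array, made by the authors with MAS5 per the submitters' processing notes; MAS5 has a version and a scaling target not given in the sources used here. Of 45101 probe sets, 64 control probe sets were set apart. A pseudocount of 2 was added before log2, and the brighter 50% of probe sets (mean log2 value over all arrays) were fitted with limma 3.58.1 (R 4.3.3), with 2 groups and an intensity trend in eBayes. Two-sided p-values were adjusted by Benjamini-Hochberg over 22519 probe sets and called under 0.05. The procedure was tested on simulated data, with changes planted only among brighter probe sets, so that test does not cover dim members.

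Names came from the platform annotation (34958 probe sets with 1 symbol, 932 with several, 9211 with none). Of 207 genes in 5 pathway and 8 marker lists, 16 matched no single-symbol probe set. The family members and the lists were chosen with earlier results of these data known. Named were all members, each list's called genes and its 3 largest changes, and the 5 genes most like E2f8; exceptions are marked. Alternatives covered the pseudocount, filter, normalization, variance model, replicate block, probe sets and each array left out. With 3 arrays per group, their number limits the precision. Promoters are from RefSeq (GRCm38.p6), figures from matplotlib 3.10.9.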

Additional observations from a re-analysis of the deposited data

How the results depend on the processing

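Leaving out isolated replicates 2 and 3 together was chosen after the data were seen; it leaves 1 isolated array, whose spread is taken to be that of the controls. Over all alternatives, the log2 change of E2f8 1436186_at moved by more than its within-group SD only there, to -2.05. Of 280 values of the other member probe sets, 271 stayed within 1 within-group SD and 9 did not; 3 of those 9 came with a pseudocount of 16 and 6 with the same 2 arrays left out. Neither E2f8 1436186_at nor E2f5 1447625_at changed sign.

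Called members numbered 2, and 1 without the intensity trend. G1 to S phase regulators had 0 called, but 1 with a pseudocount of 16 (Ccnf, higher) and 1 with median centring (Skp2, higher). Leaving 1 array out gave 0 to 1 (Ccnf, higher, without control replicate 1, 2 or 3). Ccnf read 1.81 to 12.5 in controls and 28 to 53.9 in isolated mice, so its isolated arrays carried it past the filter there. With no filter on dim probe sets Ccnf was not called (limma adjusted p 0.114). On isolated replicate 1 alone Myc had a log2 change of 2.43. Its isolated signals were 177, 4.86 and 16.5, against 29 to 32.9 in controls, and its main log2 change was -0.23. DNA replication and repair genes had 0, but 1 with a pseudocount of 16, median centring or a robust trend (Gmnn, higher), 2 with the replicate block (Gmnn, higher, and Mcm10, lower), 1 without isolated replicates 2 and 3 (Mcm2, higher), and 0 to 1 with 1 array left out (Mcm10, lower, without control replicate 2 or isolated replicate 3; Mcm2, higher, without control replicate 3). Mitosis genes had 1, but 2 with a pseudocount of 16 (Cks2, higher, and Ect2, lower) and 2 as probe sets. They had 0 with quantile normalization and without the trend, and 0 to 1 with 1 array left out. Ect2 read 30.4 to 40.4 in controls and 0.796 to 17.9 in isolated mice, with a mean below the filter in the main run. With no filter on dim probe sets Ect2 was not called (limma adjusted p 0.297). The RB and apoptosis lists had 0 in each alternative run. These genes were named after their values were seen; the cause of each change was not tested.

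Over all probe sets, 367 were called, against 182 without a filter, 31 without the trend, 513 with the replicate block and 229 without control replicate 3. Same-numbered arrays of the groups had deviations correlated at 0.0078, 0.044 and 0.0049, and differently numbered ones at -0.042 to 0.037. The labels state no pairing, and these values cannot decide whether the samples were paired, since a weak pair effect would give similar ones. Dim signals limit E2f1, E2f2, E2f7 and most mitosis genes.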
